A study of Mus musculus with 6 samples.

Results

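Cholesterol synthesis was followed in sorted early LPre-B cells, sequenced for their RNA, through 8 genes chosen by name: *Hmgcs1*, *Mvd*, *Idi1*, *Fdps*, *Fdft1*, *Sqle* and *Cyp51*, which encode enzymes of the route, and *Srebf2*, which encodes the transcription factor SREBP2. All 8 were found by Entrez ID among the 13426 genes of the deposited table. Early LPre-B (large pre-B) cells are dividing B cell precursors of the mouse bone marrow. Per the study's methods they were sorted as lineage-negative, B220+ CD43+ cells of large size without CD2 or surface IgM. There were 3 libraries from control (Ctrl) mice, of genotype Upf1 Flox/Flox with Mb1 +/+, and 3 from Upf1-cKO mice, of genotype Upf1 Flox/Flox with Mb1 Cre/+. Both groups thus carried floxed *Upf1* alleles, and they differed in the Cre recombinase, which is knocked into the *Cd79a* (Mb1) locus and acts from the first stages of the B lineage. UPF1 is an RNA helicase of nonsense-mediated mRNA decay. The mice were adult, of both sexes and age-matched, with no age given for a single library, and the study's methods call the libraries biological replicates without naming the animal behind each.

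Cells make cholesterol from acetyl-CoA through mevalonate, isoprenoid diphosphates, squalene and lanosterol. When sterols in the endoplasmic reticulum are low, SCAP escorts SREBP2 to the Golgi, where proteases release the part that enters the nucleus and switches on the genes of the route and of sterol uptake. When sterols are high, INSIG proteins hold SCAP back. Dividing lymphocyte precursors need sterols for new membrane and isoprenoids for the prenylation of small GTPases.

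SREBP2 binds sterol regulatory elements close to the start of its target genes, usually beside sites for NF-Y and Sp1, so the 250 bases upstream of the start (RefSeq, GRCm38.p6) were searched on both strands. The table of promoters held 5 of the 8 genes, *Hmgcs1*, *Mvd*, *Idi1*, *Cyp51* and *Srebf2*. The sterol element TCACNCCAC was found in 1 of them, *Hmgcs1*, and in 0.932% of the 10193 promoters of genes in the table. A looser form contained within it, TCACNNCA, was chosen after the sequences had been read, and was found in 3 of the 5 (*Hmgcs1*, *Cyp51* and *Srebf2*) and in 9.35% of all promoters. All 5 held the NF-Y box CCAAT, found in 36.8% of promoters, and the Sp1 box GGGCGG, found in 58.1%, while none held the E-box CACGTG, found in 8.43%. All 5 are shown 5′ to 3′ on the strand of the gene, in lower case with matches to TCACNNCA or TCACNCCAC, on either strand, in capitals: that of *Hmgcs1* for its full element, those of *Cyp51* and *Srebf2* because these transcripts were higher in the cKO libraries and had a match, that of *Mvd*, which was called higher and had no match, and that of *Idi1*, which was called lower and had no match. The regions are chr13:119690101-119690350 on the plus strand for *Hmgcs1*, chr5:4104698-4104947 on the minus strand for *Cyp51*, chr15:82147019-82147268 on the plus strand for *Srebf2*, chr8:122443423-122443672 on the minus strand for *Mvd* and chr13:8885356-8885605 on the plus strand for *Idi1*.
Hmgcs1: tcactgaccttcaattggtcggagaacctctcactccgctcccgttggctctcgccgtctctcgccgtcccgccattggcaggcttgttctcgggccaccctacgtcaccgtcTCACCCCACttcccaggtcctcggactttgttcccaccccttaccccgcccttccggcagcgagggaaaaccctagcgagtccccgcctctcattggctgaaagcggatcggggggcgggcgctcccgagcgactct
Cyp51: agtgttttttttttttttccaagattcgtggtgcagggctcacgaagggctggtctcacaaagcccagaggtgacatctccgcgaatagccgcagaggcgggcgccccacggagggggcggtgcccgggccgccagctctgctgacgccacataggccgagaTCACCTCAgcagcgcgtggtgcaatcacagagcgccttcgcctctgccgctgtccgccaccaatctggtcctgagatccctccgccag
Srebf2: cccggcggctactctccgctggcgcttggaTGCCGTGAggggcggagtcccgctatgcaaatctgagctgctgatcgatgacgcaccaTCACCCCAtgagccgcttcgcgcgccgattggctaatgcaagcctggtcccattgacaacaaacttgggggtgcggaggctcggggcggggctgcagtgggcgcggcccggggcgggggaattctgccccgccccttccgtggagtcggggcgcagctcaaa
Mvd: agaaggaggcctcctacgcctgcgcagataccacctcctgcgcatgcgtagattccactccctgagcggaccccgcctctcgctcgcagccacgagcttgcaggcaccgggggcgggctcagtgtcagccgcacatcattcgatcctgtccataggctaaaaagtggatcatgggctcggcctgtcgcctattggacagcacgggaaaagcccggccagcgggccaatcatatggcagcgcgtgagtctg
Idi1: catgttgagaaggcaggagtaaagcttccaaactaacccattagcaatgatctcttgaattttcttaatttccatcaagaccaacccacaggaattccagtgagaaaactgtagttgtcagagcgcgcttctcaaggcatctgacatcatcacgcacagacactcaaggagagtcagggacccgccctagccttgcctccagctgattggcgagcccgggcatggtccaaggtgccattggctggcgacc
The match in *Hmgcs1*, TCACCCCAC, lay 137 to 129 bases before the start, and that in *Cyp51*, TCACCTCA, lay 88 to 81 bases before it. *Srebf2* had TCACCCCA at 162 to 155 bases and a match on the other strand, read as TGCCGTGA, at 220 to 213 bases. A match is a description of the letters, and binding was not measured.

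The unit is the deposited normalised read value, in which the reads of a gene are divided by an effective library size per 1e6 reads. Recovered whole reads totalled between 9732498 and 11006834 per library. *Upf1* itself was not lower in the libraries labelled cKO: its value was 241 ± 32.3 (SD, n = 3) in Ctrl and 297 ± 12.7 (SD, n = 3) in cKO, which is 0.31 higher on the log2 scale (limma SE 0.089, adjusted p = 0.00696) and 0.19 higher without Ctrl replicate 2. The call was lost with libraries centred on their medians (0.20, adjusted p = 0.0645) and with variances moderated without a trend (adjusted p = 0.0685). The value covers the gene from end to end and does not show the floxed exons alone, so the genotype was not checked by it, and every direction here rests on the labels. *Cd79a*, the locus that carries Cre, was lower in the libraries labelled Mb1 Cre/+, where it fell by 1.58 on the log2 scale (SE 0.0771, adjusted p = 1.24e-11). The summed value of 12 of 12 B lineage markers was 2539 to 2808 in Ctrl and 2991 to 3220 in cKO. Of these, 6 were called higher and 2 lower, with log2 fold changes from -1.58 to 2.07. Over all genes, 27.7% were called higher and 25.0% lower. Neutrophil markers (10 of 10 in the table, 5 of them called higher, beside the same 27.7%) summed to 344 to 480 in cKO. In Ctrl they summed to 15.0 to 130, where replicate 1 was highest and the other libraries were at 19.9 and 15.0. Macrophage and dendritic cell markers (6 of 7, without *C1qa*) summed to 36.9 to 63.4 in Ctrl and 61.2 to 81.9 in cKO, plasma cell markers (4 of 4) to 72.1 to 88.5 and 52.7 to 66.0, erythroid markers (4 of 8, with the globin genes absent from the table) to 7.68 to 12.6 and 8.68 to 10.6, and T and NK cell markers (2 of 7, without *Cd3d*, *Cd3e*, *Cd3g*, *Cd4* and *Cd8a*) to 1.17 to 1.59 and 3.79 to 5.27. The part of these other cells in the results was not tested. In bulk RNA, fewer cells of a type and less RNA per cell cannot be told apart.

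The 8 genes did not all differ in 1 direction between the groups. Of the 8 genes, 3 were called higher in cKO at an adjusted p below 0.05 (*Mvd*, *Cyp51* and *Srebf2*), 1 was called lower (*Idi1*) and 4 were not called (*Hmgcs1*, *Fdps*, *Fdft1* and *Sqle*). Over all 13426 genes, 27.7% were called higher and 25.0% lower, so counts of 3 and 1 in 8 are no result about these genes as a list. Their median log2 fold change was 0.15, beside 0.010 over all genes. All 3 cKO libraries lay above all 3 Ctrl libraries for *Cyp51* and *Srebf2*, an arrangement seen in 30.9% of all genes, and below them for *Hmgcs1* and *Idi1*, which is seen in 28.0%.

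**Figure D1:**
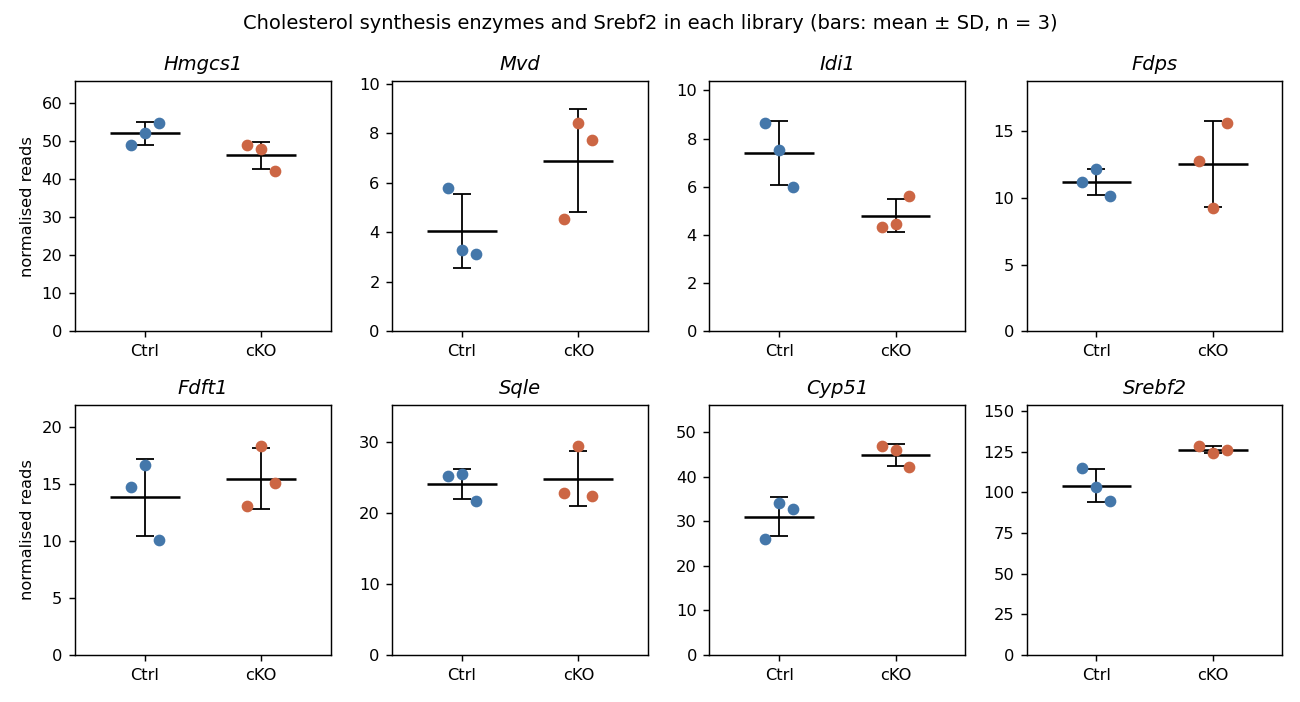
Normalised reads (vertical axis, from 0) of the 7 enzymes and *Srebf2* in each of the 6 libraries, with 1 point per library, replicates 1 to 3 from left to right, and lines for the mean ± SD (n = 3). *Cyp51* and *Srebf2* are higher in every cKO library than in any Ctrl library, *Idi1* is lower in every cKO library, and the points of *Fdps*, *Fdft1*, *Sqle* and *Mvd* overlap between the groups.

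*Srebf2* (chr15:82147269-82205379, plus strand), the regulator of the route, gave 115, 103 and 94.8 normalised reads in the 3 Ctrl libraries and 128, 124 and 126 in the 3 cKO libraries. Every cKO library was above every Ctrl library, and the cKO libraries lay close together. The mean rose from 104 ± 10.1 to 126 ± 2.17 (SD, n = 3 each), which is 1.21-fold on the log2(value + 1) scale, used for all folds other than bounds against a floor of reads (log2 fold change 0.28, SE 0.0839, 95% interval 0.10 to 0.45, adjusted p = 0.00954). The call was kept without each library in turn but was lost when every library was centred on its median (0.17, adjusted p = 0.0938) and when the variance was moderated without an intensity trend (0.28, adjusted p = 0.0536).

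*Hmgcs1* (chr13:119690351-119708260, plus strand) encodes HMG-CoA synthase, which acts upstream of mevalonate. Its values were 48.9, 52.2 and 54.8 in Ctrl and 48.8, 47.7 and 42.2 in cKO. The groups did not overlap, although the lowest Ctrl and the highest cKO library almost coincided. The means were 52.0 ± 2.93 and 46.3 ± 3.56 (SD, n = 3 each), and the difference did not pass the test (log2 fold change -0.17, SE 0.0959, 95% interval -0.37 to 0.036, adjusted p = 0.156). It passed the test when libraries were centred on their medians (-0.27, adjusted p = 0.0222), had the opposite sign when they were scaled to total reads (0.034, adjusted p = 0.8), and was -0.10 without cKO replicate 3. An antisense gene, *Gm48342*, overlaps 12.1% of its exon bases, and the counting did not use strand.

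*Mvd* (chr8:122433596-122443422, minus strand), mevalonate diphosphate decarboxylase, makes isopentenyl diphosphate. It gave 5.79, 3.28 and 3.13 in Ctrl and 4.54, 8.43 and 7.71 in cKO, from 31 to 93 reads per library. The groups overlapped, because cKO replicate 1 was below Ctrl replicate 1. The mean went from 4.07 ± 1.49 to 6.89 ± 2.07 (SD, n = 3 each; log2 fold change 0.64, SE 0.236, 95% interval 0.14 to 1.14, adjusted p = 0.0294). The call was lost without Ctrl replicate 2 (0.54, adjusted p = 0.109), Ctrl replicate 3 (0.51, adjusted p = 0.0994), cKO replicate 2 (0.49, adjusted p = 0.147) or cKO replicate 3 (0.55, adjusted p = 0.113), and also with medians centred (0.53, adjusted p = 0.0674), with quantile normalization (0.46, adjusted p = 0.103) and with variances moderated without a trend (0.64, adjusted p = 0.0762).

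*Idi1* (chr13:8885606-8892396, plus strand), isopentenyl diphosphate isomerase, makes dimethylallyl diphosphate in the next step. Its values were 8.66, 7.53 and 6.01 in Ctrl and 4.34, 4.46 and 5.61 in cKO, from 44 to 81 reads per library. No cKO library reached the lowest Ctrl library, so this enzyme and *Mvd*, neighbours in the route, were called in opposite directions. The mean fell from 7.40 ± 1.33 to 4.80 ± 0.697 (SD, n = 3 each; log2 fold change -0.53, SE 0.188, 95% interval -0.92 to -0.13, adjusted p = 0.0248). The call was lost without Ctrl replicate 1 (-0.42, adjusted p = 0.099), Ctrl replicate 2 (-0.51, adjusted p = 0.0583), cKO replicate 1 (-0.47, adjusted p = 0.0828) or cKO replicate 2 (-0.49, adjusted p = 0.0759), and with scaling to total reads (-0.35, adjusted p = 0.126). A gene on the other strand, *Gm48574*, overlaps 9.22% of its exon bases.

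The enzymes that lead to squalene and its epoxide could not be separated between the groups. *Fdps* (chr3:89093588-89101967, minus strand), farnesyl diphosphate synthase, gave 11.2, 12.2 and 10.2 in Ctrl and 12.7, 9.24 and 15.6 in cKO. Its cKO libraries lay on both sides of the Ctrl values, with an SD of 25.5% of the mean in cKO, beside 17.1% for *Fdft1* and 15.8% for *Sqle*. The log2 fold change was 0.13 (95% interval -0.24 to 0.49, adjusted p = 0.561), and it was -0.036 without cKO replicate 3. *Gm43738* on the same strand overlaps 26.7% of its exon bases, so its value is uncertain.

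*Fdft1* (chr14:63145150-63181687, minus strand), squalene synthase, commits farnesyl diphosphate to sterols. It gave 14.7, 16.6 and 10.1 in Ctrl and 13.0, 18.3 and 15.0 in cKO, with a low value in Ctrl replicate 3. The log2 fold change was 0.17 (95% interval -0.20 to 0.53, adjusted p = 0.438), and it was -0.029 without that library. *Ctsb*, a gene on the other strand, overlaps 18.3% of its exon bases. *Sqle* (chr15:59315092-59331193, plus strand), squalene epoxidase, gave 25.2, 25.5 and 21.7 in Ctrl and 22.9, 29.4 and 22.4 in cKO. Only cKO replicate 2 stood above the Ctrl range. Its log2 fold change was 0.036 (95% interval -0.23 to 0.30, adjusted p = 0.834), and it was -0.036 without Ctrl replicate 3 and -0.086 without cKO replicate 2. For these 3 enzymes the intervals reach past a change as large as that of *Srebf2* in the upward direction, so a change of that size was not detectable here and is not shown to be absent.

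*Cyp51* (chr5:4080674-4104697, minus strand), lanosterol 14-alpha-demethylase, starts the conversion of lanosterol to cholesterol and was the member with the smallest adjusted p. It gave 26.0, 34.1 and 32.8 in Ctrl and 46.8, 45.9 and 42.1 in cKO. The lowest cKO library was well above the highest Ctrl library. The mean rose from 31.0 ± 4.37 to 44.9 ± 2.49 (SD, n = 3 each), 1.45-fold (log2 fold change 0.53, SE 0.112, 95% interval 0.30 to 0.77, adjusted p = 0.000616). Under all 18 alternative settings the call was kept, with log2 fold changes from 0.41 to 0.73 and adjusted p from 3.86e-05 to 0.0104, and without Ctrl replicate 1, the Ctrl library with the most neutrophil marker signal, the log2 fold change was 0.41. *Akap9* on the other strand overlaps 3.76% of its exon bases.

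**Figure D2:**
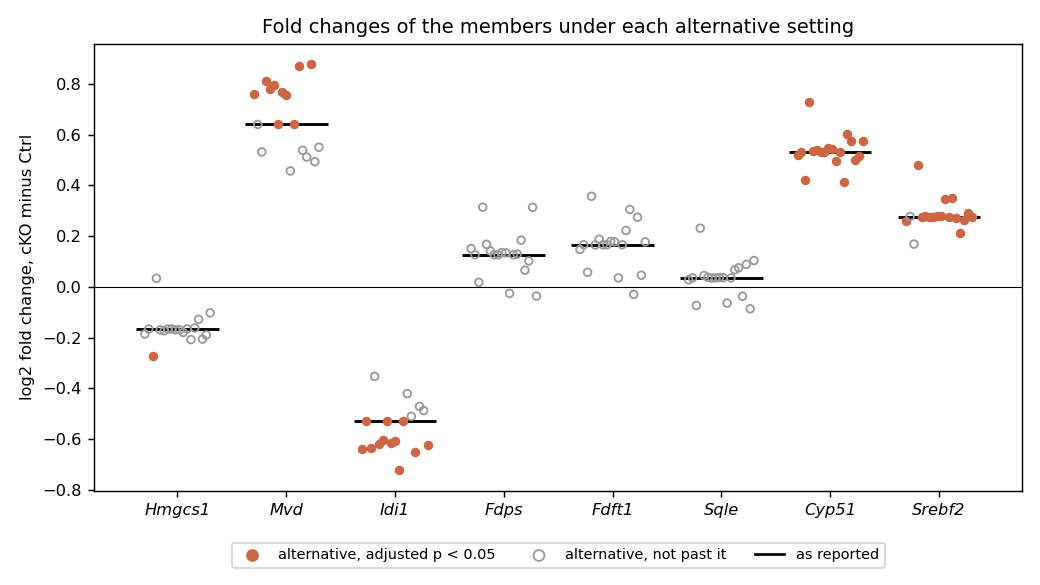
Log2 fold change, cKO minus Ctrl (vertical axis), of each of the 8 genes as reported (line) and under each alternative setting that could be fitted (points, filled where the adjusted p was below 0.05). All points of *Cyp51* are filled and above 0, those of *Mvd* and *Idi1* are filled for only some settings but keep their side of 0, and those of *Hmgcs1*, *Fdps*, *Fdft1* and *Sqle* lie on both sides of 0.

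Levels were compared between genes per 1 kb of exon (normalised reads per kb, mean ± SD, n = 3). In Ctrl, *Srebf2* was highest at 14.5 ± 1.4, followed by *Hmgcs1* at 11.3 ± 0.638, *Cyp51* at 7.01 ± 0.99 and *Sqle* at 4.35 ± 0.383. The libraries of these neighbours did not overlap in level. From *Sqle* down, through *Fdft1* (3.27), *Fdps* (2.66), *Mvd* (2.19) and *Idi1* (2.11), each gene overlapped the next. In cKO, *Srebf2* was at 17.6 ± 0.302, while *Cyp51* at 10.2 ± 0.565 and *Hmgcs1* at 10.1 ± 0.775 overlapped. *Sqle* (4.49), *Mvd* (3.71), *Fdft1* (3.65) and *Fdps* (2.98) followed with overlapping neighbours, and *Idi1* was lowest at 1.37 ± 0.199, below every cKO library of *Fdps*. The distance between *Hmgcs1* and *Cyp51* was also read within each library, as a ratio of normalised reads (not per kb) that no scaling between libraries can change. *Hmgcs1* was above *Cyp51* in all 6 libraries by this measure. The log2 ratio of *Cyp51* to *Hmgcs1* was -0.76 ± 0.150 in Ctrl and -0.040 ± 0.0324 in cKO (SD, n = 3 each), a difference of 0.72 that ranged from 0.64 to 0.79 without each library in turn. This ratio, 1 of 2 that were computed, was chosen after the values were seen. When all 20 assignments of the 6 libraries to groups were enumerated, the exact permutation test (two-sided) gave p = 0.1, and 0.1 after adjustment over both ratios, which is the smallest p this design can give.

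Calls over the whole route were in both directions. Of the 22 enzymes from *Acat2* to *Dhcr7*, 5 were called higher, 2 lower and 15 neither, beside 27.7% and 25.0% of all genes, with a median log2 fold change of 0.12. The calls lower, *Idi1* and *Lbr*, were lost with scaling to total reads (adjusted p = 0.126 and 0.469). From *Acat2* to *Fdps*, 1 was called higher and 1 lower, which over the alternatives became 0 to 4 and 0 to 3. For the 15 that are not among the 8 genes, the counts were 3 higher and 1 lower. *Lss*, lanosterol synthase, went from 9.97 ± 1.10 to 13.8 ± 0.704 (0.43, adjusted p = 0.0192), a call lost without Ctrl replicate 3 (0.35, adjusted p = 0.0774) or cKO replicate 2 (0.39, adjusted p = 0.0719), with medians centred (0.32) and with quantile normalization (0.28).

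Past lanosterol, 3 of 11 enzymes were called higher and 1 lower, beside 27.7% and 25.0% of all genes, and the median of the list was -0.064. The count of 1 lower became 2 without Ctrl replicate 3, without cKO replicate 3 or with quantile normalization, 3 with medians centred and 0 with scaling to total reads. *Msmo1*, a sterol methyl oxidase that acts after *Cyp51*, rose from 7.22 ± 0.719 to 11.7 ± 1.87 (0.62, adjusted p = 0.00386). *Lbr*, a protein of the inner nuclear membrane that is also a sterol reductase, fell from 822 ± 54.8 to 679 ± 30.8 (-0.27, adjusted p = 0.00344). Its call was lost with scaling to total reads (-0.071, adjusted p = 0.469) and with quantile normalization (-0.076, adjusted p = 0.416).

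**Figure D3:**
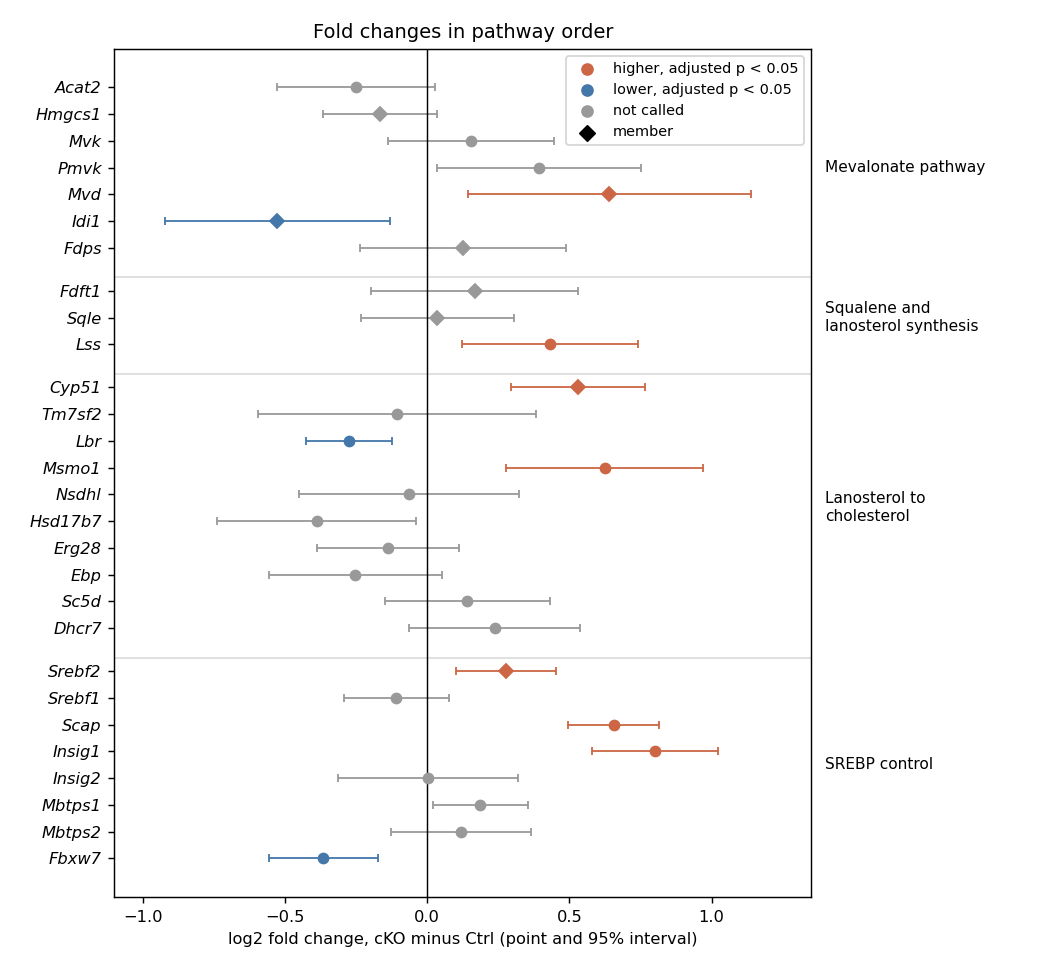
Log2 fold change, cKO minus Ctrl (horizontal axis, point with 95% interval), of 28 genes in the order of the route, with the 8 chosen genes as diamonds and colour for genes past an adjusted p of 0.05. Calls in both directions stand next to uncalled steps: *Mvd* at 0.64 is followed by *Idi1* at -0.53, while *Scap* at 0.65 and *Insig1* at 0.80 are the largest values among the regulators.

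The genes that control SREBP2 activity showed 3 calls higher and 1 lower among 8, *Srebf2* included, and with 27.7% and 25.0% of all genes called these counts are no result about the list. *Scap*, the escort of SREBP2, rose from 93.4 ± 2.50 to 148 ± 5.35 (SD, n = 3 each; log2 fold change 0.65, adjusted p = 1.01e-06). *Insig1*, which retains SCAP and is itself a known SREBP target, gave 24.6, 22.4 and 22.6 in Ctrl and 40.0, 39.4 and 44.0 in cKO, so that every cKO library was far above every Ctrl library (0.80, SE 0.105, adjusted p = 4.35e-06). *Fbxw7*, a ubiquitin ligase subunit that marks nuclear SREBPs for degradation, fell from 65.1 ± 3.50 to 50.4 ± 3.45 (-0.36, adjusted p = 0.00255), a call lost with scaling to total reads (-0.16, adjusted p = 0.168). *Srebf1*, the paralog that favours fatty acid genes, was at 90.2 ± 7.97 and 83.5 ± 4.46 (-0.11, adjusted p = 0.315). It was called lower with medians centred (-0.22, adjusted p = 0.0415), had the opposite sign with scaling to total reads (0.093), and was -0.037 without Ctrl replicate 1 and -0.064 without cKO replicate 2. With *Insig2* at 13.4 ± 1.28 and 13.5 ± 2.33 (0.0016, adjusted p = 0.994), the difference seen for *Insig1* had no counterpart past the test in its paralog, and the difference between the paralogs was not itself tested. *Insig2* is named after its values were seen.

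Genes for the sterol-dependent turnover of enzymes of the route had 0 of 9 called higher and 2 lower by limma (median -0.044), where 27.7% and 25.0% of all genes were. At an unadjusted p below 0.05, 1 was higher, edgeR and DESeq2 called 0 higher, and scaling to total reads gave 3. *Rnf145*, a ubiquitin ligase of the endoplasmic reticulum, fell from 114 ± 8.49 to 91.5 ± 3.23 (-0.32, adjusted p = 0.00353), which did not pass with scaling to total reads (-0.11, adjusted p = 0.309).

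Receptors and carriers that bring cholesterol in included larger fold changes than any enzyme that makes it. Of 14 genes of uptake and transport, 6 were called higher and 0 lower, with a median log2 fold change of 0.29 beside 0.12 for the enzymes and 0.010 for all genes, of which 27.7% were called higher and 25.0% lower; no test was made of one list against another. The count of genes higher ranged from 4 to 10 over the alternatives, and from 5 to 8 without each library in turn. The count of genes lower was also 0 by limma at an unadjusted p below 0.05, by edgeR and by DESeq2, and it was 1 with medians centred.

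*Vldlr*, the receptor for very low density lipoprotein, had 0 reads in each Ctrl library and 18 to 25 in the cKO libraries, at least 6.13-fold higher when each Ctrl library is set to a floor of 3 reads, which covers counting error only. The gene, counted among those called higher in its list, is in the table only through its cKO reads, so a fall could not have been seen. It ranks above the middle of its list with its fitted value or with that bound, so the list's median is the same with either. *Npc1*, which exports cholesterol from lysosomes, rose from 27.2 ± 3.01 to 45.3 ± 5.61 (0.71, adjusted p = 4.39e-05). *Gramd1c*, a sterol carrier at contacts of the endoplasmic reticulum with the plasma membrane, went from 2.67 ± 0.718 to 4.60 ± 0.656 (0.62, adjusted p = 0.0185), a call lost without Ctrl replicate 3 (0.51, adjusted p = 0.0737) or cKO replicate 3 (0.53, adjusted p = 0.087) and with quantile normalization (0.44).

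Of the genes for sterol sensing by LXR, efflux, esters and oxysterols, 10 of 14 were in the table, 4 of these were called higher and 1 lower (27.7% and 25.0% of all genes), and the median was 0.46. That median lies between *Nceh1* (0.39) and *Apoe* (0.53, adjusted p = 0.544), both named after their values were seen. For *Apoe*, only cKO replicate 2, at 23.1, stood above the Ctrl values of 4.30, 7.93 and 5.31. The other cKO libraries were at 4.83 and 5.44. The genes without a value were *Abcg4*, *Ch25h*, *Cyp7b1* and *Cyp27a1*. *Abca1*, the exporter of cholesterol to apolipoprotein A-I and a known LXR target, rose from 13.3 ± 3.65 to 29.9 ± 4.12 (1.13, adjusted p = 2.43e-05). *Soat2*, which makes cholesterol esters, had 0 reads in every Ctrl library and 37 to 51 in the cKO libraries, at least 12.4-fold higher with the same floor. Like *Vldlr*, it is counted among those called higher but is in the table only through its cKO reads. *Mylip*, another LXR target, which encodes a ubiquitin ligase, moved the other way, from 59.6 ± 10.5 to 37.6 ± 4.26 (-0.64, adjusted p = 0.000194). *Hsd3b7*, an enzyme of bile acid synthesis, had a log2 fold change of 0.86 (adjusted p = 0.000765), but other genes overlap 99.2% of its exon bases, so its value is uncertain.

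**Figure D4:**
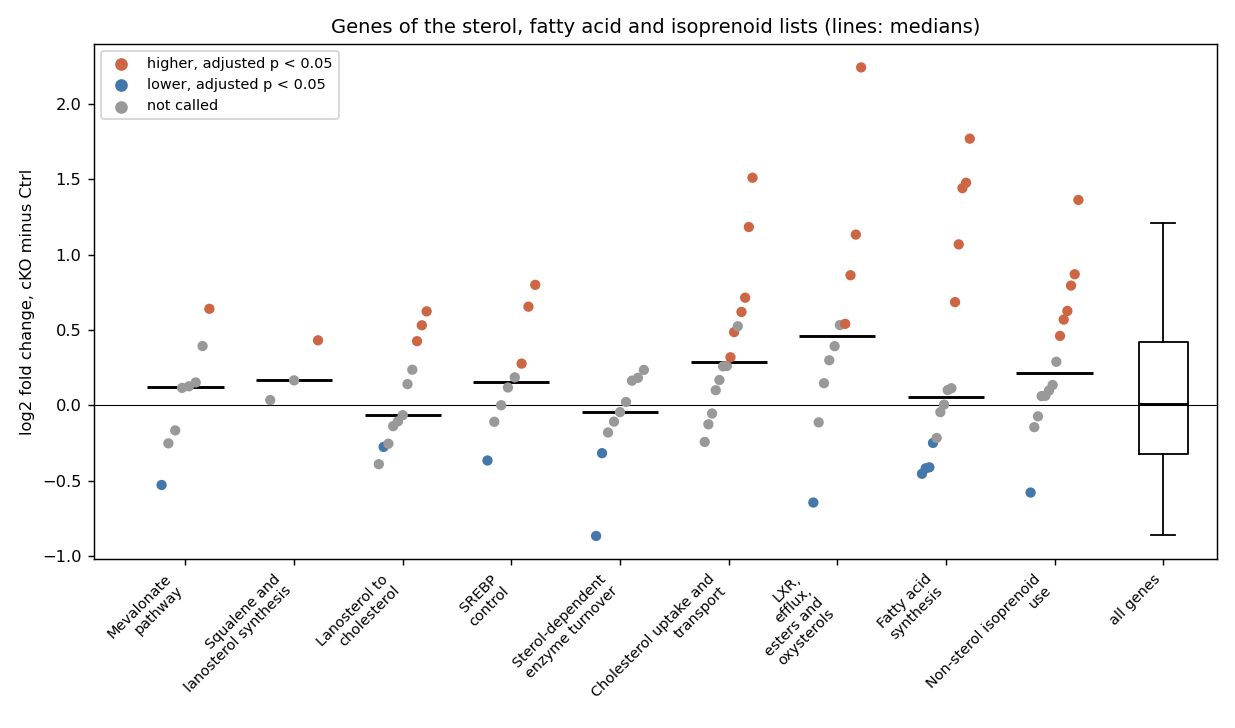
Log2 fold change, cKO minus Ctrl (vertical axis), of each gene of 9 lists, with 1 point per gene, a line at each list's median and colour for genes past an adjusted p of 0.05, beside a box of all 13426 genes (median, quartiles and whiskers from the 5th to the 95th percentile). Medians run from -0.064 for the steps from lanosterol to cholesterol to 0.46 for LXR, efflux, esters and oxysterols, and the highest single points lie outside the 3 lists of cholesterol synthesis. The median of 0.46 lies between *Nceh1* and *Apoe*, of which *Apoe* stood above the Ctrl range only in cKO replicate 2. *Vldlr* and *Soat2*, without Ctrl reads, are in the table only through their cKO reads.

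In the neighbouring branches, some genes had larger fold changes than any enzyme of cholesterol synthesis. In fatty acid synthesis, with 14 of 15 genes in the table (*Me1* had no value), 5 were called higher and 4 lower, for a median of 0.054, against shares of 27.7% and 25.0% over all genes. The count of genes lower ranged from 1 to 5 over the alternatives. The genes named next had the largest fold changes and all rose, while those called lower had log2 fold changes from -0.45 to -0.25. *Fads2* and *Fads1*, the desaturases of polyunsaturated fatty acids, rose from 13.7 ± 1.34 to 49.0 ± 2.16 (1.77, adjusted p = 5.35e-10) and from 38.2 ± 1.38 to 105 ± 6.46 (1.44, adjusted p = 2.5e-10). *Elovl6*, an elongase of saturated fatty acids, rose from 148 ± 11.3 to 312 ± 11.7 (1.07, adjusted p = 2.31e-09). *Acacb*, an acetyl-CoA carboxylase of mitochondria, rose from 1.10 ± 0.295 to 4.95 ± 1.59 (1.48, adjusted p = 2.68e-05) on 8 to 68 reads per library.

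Among genes that use isoprenoids for purposes other than sterols, 6 of 14 were called higher and 1 lower, with a median of 0.21 and the same shares over all genes. Over the alternatives the counts ranged from 6 to 10 higher and from 1 to 2 lower. *Rabggtb*, a subunit of the enzyme that prenylates Rab proteins, rose from 48.5 ± 4.22 to 126 ± 4.84 (1.36, adjusted p = 5.32e-10), and *Snord45b* and *Snord45c*, small nucleolar RNA genes, overlap 6.24% of its exon bases. *Pdss1*, which makes the side chain of ubiquinone, rose from 19.7 ± 1.72 to 36.9 ± 3.61 (0.87, adjusted p = 5.54e-06). *Pggt1b* and *Fntb*, the beta subunits of the enzymes that attach geranylgeranyl and farnesyl groups to proteins, rose from 51.1 ± 1.27 to 89.3 ± 3.10 (0.79, adjusted p = 2.79e-07) and from 16.2 ± 1.43 to 25.4 ± 0.773 (0.63, adjusted p = 0.000277). Over all 91 of 96 listed genes with a value, 29 were called higher and 11 lower, beside 27.7% and 25.0% of the whole table.

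The genes with the profile most like that of these genes were sought among 8454 genes with a mean of at least 10 outside the lists, by Euclidean distance over the 6 libraries after each gene's mean log2 value was subtracted. Nearest to the median profile of the 7 enzymes were *Tspan13* (distance 0.144), *Tpp1* (0.150) and *Rnf185* (0.152), none of them called. Nearest to *Srebf2* were *Fut8* (0.0595), *Ranbp3* (0.0729) and *Khnyn* (0.0941), whose log2 fold changes were 0.29, 0.26 and 0.25.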

How the data were processed

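RNA was measured in 3 Ctrl and 3 cKO libraries, grouped and numbered by their labels. Total RNA was freed of ribosomal RNA before library preparation. Single-end reads were trimmed (cutadapt 4.0, per the submitters' processing notes), aligned to mm10 by HISAT2 ignoring strand, and assigned to Entrez genes by featureCounts 2.0.1. The submitters' notes also name limma 3.48.0. The deposited values are a linear signal, called normalised reads here: the authors added 0.5 to each read count and scaled the sum by an effective library size per 1e6 reads. In units of 0.5 reads, at least 99.99% of the values of each library lay within 0.02 of a whole number. All did when the tolerance grew with the largest values. The recovered whole reads totalled 9732498 to 11006834 per library, with 0 columns of other samples. Depth limits genes such as *Mvd*, with 31 to 93 reads per library.

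R 4.3.3 and limma 3.58.1 were used to test differences of log2(value + 1), with group as the only term, eBayes with trend and robust estimation, and Benjamini-Hochberg adjustment over all 13426 genes, two-sided. A gene was called at an adjusted p below 0.05. The pseudocount understates the change of low genes. The code was tested on simulated data. Symbols (13008 genes named), gene coordinates and promoters came from RefSeq, and strands, exon lengths and overlaps from GENCODE M21, both on GRCm38.

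The genes and lists were chosen with earlier results of these data known. Named in the text are the 8 genes, in each list at most 4 genes of largest absolute fold change among those called, *Lss*, *Srebf1*, *Scap*, *Insig1*, *Upf1*, and the 3 nearest profiles each to the enzymes and to *Srebf2*. Some genes that met this rule are not reported here, though the counts over lists include them. Alternatives were other pseudocounts, filters, scalings and moderation, voom weights, the recovered reads in DESeq2 1.42.0 and in edgeR 4.0.16, a replicate block, and leaving out each library. No library was counted as a repeat of another of its group, since chi-square values per degree of freedom between them were 4.39 to 22.02.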

Additional observations from a re-analysis of the deposited data

How the results depend on the processing

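Of the 8 genes, *Cyp51* kept its call under all 18 alternatives. Over the whole table the median log2 fold change was 0.010, and 52.6% of called genes were higher. These became -0.098 and 40.7% with libraries centred on their medians, and 0.19 and 72.8% with scaling to total reads, so small differences are relative to the authors' scaling. With medians centred, 1 of the 8 genes was called higher and 2 lower, with *Hmgcs1* at -0.27, *Mvd* at 0.53, *Sqle* at -0.073 and *Srebf2* at 0.17, and 20 pathway genes were called lower. With total reads, 0 of the 8 were called lower, with *Hmgcs1* at 0.034, *Idi1* at -0.35 and *Srebf1* at 0.093. The table then held 1936 genes called lower, and the pathway lists 49 higher and 4 lower. Quantile normalization gave *Mvd* 0.46, *Fdps* -0.025 and *Sqle* -0.063. Without trend or robust estimation 1 of the 8 was called higher, with *Mvd* at 0.64 and *Srebf2* at 0.28. A minimum mean log2 value of 3 removed *Mvd* and *Idi1* and left 0 called lower. Without each library in turn, 2 to 3 of the 8 were called higher and 0 to 1 lower, and log2 fold changes ranged from 0.49 to 0.88 for *Mvd*, -0.65 to -0.42 for *Idi1*, -0.036 to 0.31 for *Fdps*, -0.029 to 0.31 for *Fdft1* and -0.086 to 0.10 for *Sqle*. The cause of these moves was not tested.

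The replicate numbers were not shown to pair the samples. Same-numbered libraries had deviations correlated at 0.0893, -0.0289 and -0.0315, beside -0.117 to 0.144 for libraries of different numbers. With so few libraries this cannot exclude pairing. The deposited column names give same-numbered Ctrl and cKO libraries adjacent numbers, whose meaning is not stated. With the replicate number as a block, 3668 genes were called higher and 3321 lower, 3 of the 8 higher and 1 lower, and no call among the 8 was lost.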
